A study of Mus musculus with 6 samples.

Results

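Complement is a cascade of plasma and tissue proteins in which bound antibody, sugars or a spontaneously activating surface lead to cleavage of C3 and then of C5, to opsonization, and to assembly of a membrane attack pore. The 33 genes described here are the mouse complement components, receptors and regulators given by symbol, out of 54309 genes in the tables. They were grouped into 7 arms: the classical arm, the lectin and collectin arm, C3 and the alternative arm, the terminal arm, soluble regulators, membrane regulators, and receptors. Estimated read pairs and TPM (a transcript level scaled for transcript length and library size) of all transcripts that carried a gene's symbol were summed in each sample. The genes were chosen by symbol with earlier results on these libraries in view, and the only measured values in the rule are the summed TPM and read pairs, so the levels below are a description with no test.

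The samples were left sciatic nerves of female and male C57BL/6 mice (C57BL6/J in the protocol), 6 to 8 weeks old, labelled as whole nerve and taken 24 h after sham surgery. The paper's methods instead describe proximal segments of the nerve as the tissue collected, and the sham nerves as anatomically equivalent. In the sham procedure the nerve was exposed at the thigh under isoflurane and not cut. Each sample was a pool of nerves from 2 mice, with 3 female and 3 male pools, so all groups shared the surgery, the strain and the time, and no nerve without surgery was analysed here. Poly-A selected, strand-specific libraries held 55949876 to 66285694 estimated read pairs in female pools and 59165914 to 78473057 in male pools. The sex of every pool matched its sex-linked transcripts. Summed Schwann cell markers were at 33775 to 41228 TPM in female pools and 39125 to 43000 TPM in male pools. The pools also held fast skeletal muscle transcripts, at 3615 TPM in female replicate 2 and at 18 to 232 TPM in the other 5 pools.

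In peripheral nerve, complement proteins are known for tagging myelin debris and axons for uptake by macrophages after injury. Much of plasma complement is made by the liver, while macrophages make C1q and the receptors for C3a and C5a, and fibroblasts can make C1r, C1s, C3 and C1 inhibitor. Cells in a nerve are protected from their own complement by membrane regulators that decay or block the convertases and the pore. Of 10 hepatocyte markers, 9 had no pool above 1 TPM (Alb, the serum albumin gene, among them) and the remaining marker, Hp, is also made outside the liver.

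The nerve carried transcripts for the classical arm, C3 and the alternative arm and most regulators, and almost none for most of the terminal pathway. All 33 genes together summed to 3544, 3292 and 3774 TPM in female pools and to 3913, 3780 and 3475 TPM in male pools. The classical arm held 41.0% of that sum on average over the pools, soluble regulators 24.2%, C3 and the alternative arm 17.5%, membrane regulators 8.77%, receptors 6.89%, the lectin and collectin arm 1.20% and the terminal arm 0.537%. The terminal share ran from 0.164% to 1.02% over the pools. That arm summed to 5.53 to 8.26 TPM in female pools and 23.1 to 38.6 TPM in male pools. Of the 33 genes, 27 entered the test, for which 3 or more pools had to reach a CPM (read pairs relative to library size) of 0.5. By mean TPM, 14 of the 27 exceeded 93.2, the value at percentile 90 over the 16310 genes tested. The 6 genes that did not enter were Masp2 and Fcnb of the lectin arm, Hc, C8g and C9 of the terminal arm, and Cfi of the soluble regulators.

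**Figure D1:**
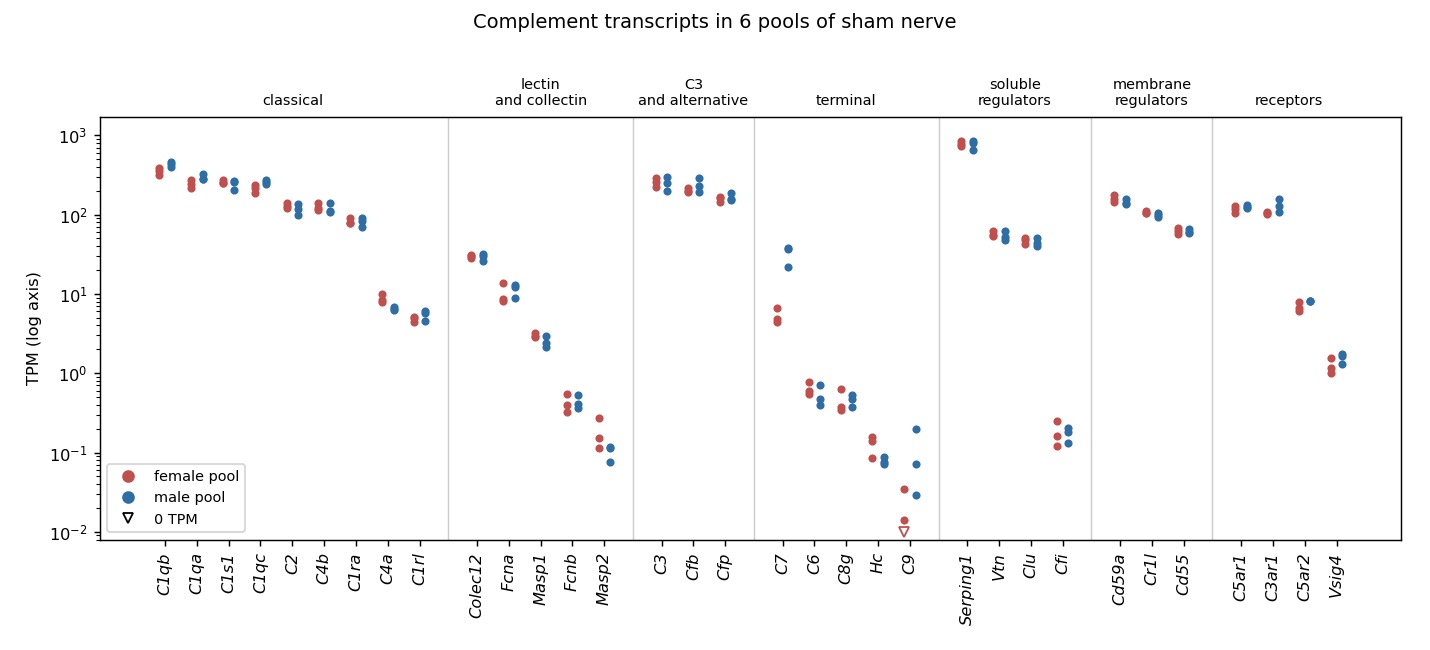
TPM of the 33 complement genes in each pool, on a log axis, by arm and in order of mean level within the arm. Red points are the 3 female pools and blue points the 3 male pools, and the open triangle marks 0 TPM for C9 in female replicate 1. C7 is the gene whose female and male points stand far apart, at 4.38 to 6.69 TPM in female pools and 22.1 to 37.4 TPM in male pools.

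Female and male sham nerves were compared to ask whether the nerve differed by sex before any transection. In the quasi-likelihood test of edgeR with Benjamini-Hochberg adjustment over all 16310 genes and a threshold of 0.1, 1 of the 27 tested complement genes was called, C7, which was lower in females. The same test called 0.0613% of all genes tested, 0.0368% as lower in females and 0.0245% as higher in females. Of the 27 genes, 5 had an unadjusted p under 0.05, against 6.11% of all genes tested. Of these 5, 4 were lower in females, as were 3.62% of all genes, and 1 was higher, as were 2.49%. Of the 27, 3 had normalized counts that did not overlap between the sexes, which is 11.1% of the complement genes against 11.2% of all genes. The median log2 fold change, taken as female over male throughout, was -0.02 for the 27 genes and 0.00 for all genes tested, and 14 of the 27 were below 0, against 49.4% of all genes. Apart from C7, the largest log2 fold change was -0.38 and the lowest adjusted p was 0.79. With 3 pools against 3, an exact permutation test of a single gene cannot give a p under 0.1. Each pool came from separate animals.

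**Figure D2:**
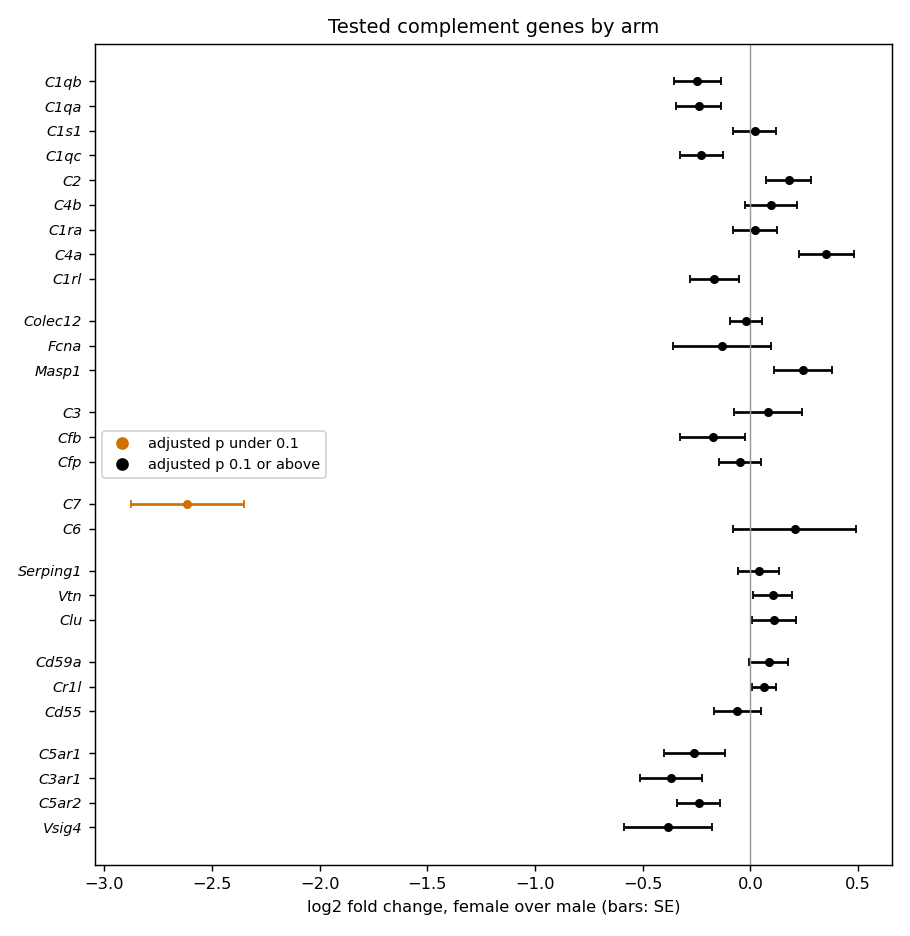
Log2 fold change (female over male) for the 27 complement genes tested, by arm from classical at the top to receptors at the bottom, with bars of 1 SE from edgeR. C7, in orange, lies at -2.61, and the other 26 genes, in black, lie between -0.38 and 0.35.

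C7, a plasma protein that binds C5b and C6 and inserts the growing attack complex into a membrane, was at 4.84, 4.38 and 6.69 TPM in female pools and 37.4, 37.3 and 22.1 TPM in male pools. The sexes did not overlap, and the lowest male pool was 3.29 times the highest female pool. The mean was 5.30 ± 1.22 TPM in female pools and 32.3 ± 8.83 TPM in male pools (SD, n = 3 each). The log2 fold change was -2.61 (SE 0.26, edgeR adjusted p = 0.064), and the level in male nerves was 6.12 times that in female nerves. The counts behind it were 409 to 736 estimated pairs in female pools and 2147 to 4713 in male pools. The annotation the authors used holds 1 C7 transcript, so all of these pairs were assigned to C7-201, a protein-coding transcript of 2676 bases. Of its stretches of 31 bases, 0.71% also occurred in transcripts of other genes.

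The call was lost when female replicate 1, female replicate 2, male replicate 1 or male replicate 2 was left out (adjusted p = 0.52, 0.19, 0.35 and 0.27 in edgeR) and when genes with low counts were kept (0.23). The log2 fold change stayed between -2.48 and -2.90 in every alternative, and DESeq2 and limma with sample weights called C7 with adjusted p of 5.1e-30 and 0.0047. Summed fibroblast markers were at 6638 to 7438 TPM in female pools and 6797 to 8282 TPM in male pools. Of the 9 fibroblast markers, 5 had a log2 fold change below 0, and the median over the 9 was -0.06. Among these 5, Col1a1 and Col1a2, chains of type I collagen, did not overlap between the sexes, as for 6.04% of all genes tested in this direction. Their log2 fold changes were -0.47 and -0.34, with edgeR adjusted p of 0.42 and 0.55. Ly6c1, Pdgfra, Pi16 and Dpt had log2 fold changes above 0, of 0.19, 0.15, 0.05 and 0.003. Endothelial markers were at 304.8 to 354 TPM in female pools and 304.7 to 398 TPM in male pools. Adipocyte markers were at 594 to 1156 TPM in female pools and 525 to 575 TPM in male pools, and macrophage markers at 3252 to 3260 TPM in female pools and 3570 to 4728 TPM in male pools. The adipocyte and macrophage sums did not overlap between the sexes. Fabp4 made up most of the adipocyte sum, at 442 to 874 TPM in female pools and 382 to 428 TPM in male pools. By normalized counts, Lep and Retn were apart and higher in females, as for 5.16% of all genes tested. Adipoq, Cidec, Fabp4, Lipe, Pck1 and Plin1 overlapped. The part of any of these marker lists in the C7 difference was not tested. In bulk nerve, fewer cells of a type and less RNA per cell cannot be told apart.

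C7 lies on the minus strand of chromosome 15 at chr15:5017233-5093252 (GRCm39, GENCODE M39), beside C6 at chr15:4756525-4844580 on the plus strand. Its promoter is shown because C7 carries the difference between the sexes. The sequence is the RefSeq window from 250 bases before to 50 bases after the start, on GRCm38.p6 at chr15:5063724-5064023, minus strand, with capitals at matches to TATAA and AGGTCA.
C7: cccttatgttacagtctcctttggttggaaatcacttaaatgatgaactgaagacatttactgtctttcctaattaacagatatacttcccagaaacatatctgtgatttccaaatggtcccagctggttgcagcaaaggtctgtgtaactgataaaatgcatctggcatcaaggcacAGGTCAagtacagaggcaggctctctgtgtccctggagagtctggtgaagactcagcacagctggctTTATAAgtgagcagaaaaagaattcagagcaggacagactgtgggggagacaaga
The letters searched on both strands were TATAA (the core of a TATA box), AGAACA (a hexamer bound by androgen and glucocorticoid receptors) and AGGTCA (a hexamer bound by estrogen and other nuclear receptors). TATAA matched on both strands at overlapping positions, 4 bases before the start on the strand of the gene, and occurred in 24.9% of the 32851 promoters in the table. These 2 matches were the only ones in the window and reach the start itself. They are a description of the letters and not a shown TATA box. AGGTCA matched 1 time, 72 bases before the start, and occurred in 16.3% of promoters. AGAACA had 0 matches in this window and occurred in 19.0% of promoters.

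The rest of the terminal arm was near the lower limit of the libraries. C6, which joins C5b ahead of C7, was at 0.551, 0.599 and 0.764 TPM in female pools and 0.470, 0.701 and 0.394 TPM in male pools, with a log2 fold change of 0.21 (SE 0.29, adjusted p = 0.93 in edgeR). The pools of the sexes overlapped, and C6 lay at the 5.02 percentile of genes tested. Hc, the gene for mouse C5, had 6 to 27 estimated pairs per pool and 0.072 to 0.159 TPM. C8g, the gamma chain of C8, had 12 to 24 pairs per pool, and C9, which forms the wall of the pore, had 11 pairs in all 6 libraries. C9 had 0 pairs in female replicate 1, a count that still allows up to 3, so its absence cannot be stated at this depth. The terminal genes other than C7 summed to 0.974 to 1.56 TPM, so that C7 made up 94.0% of the arm's mean TPM over all pools. By sex, C7 averaged 5.30 TPM of an arm mean of 6.53 TPM in female pools, and 32.3 of 33.4 TPM in male pools.

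**Figure D3:**
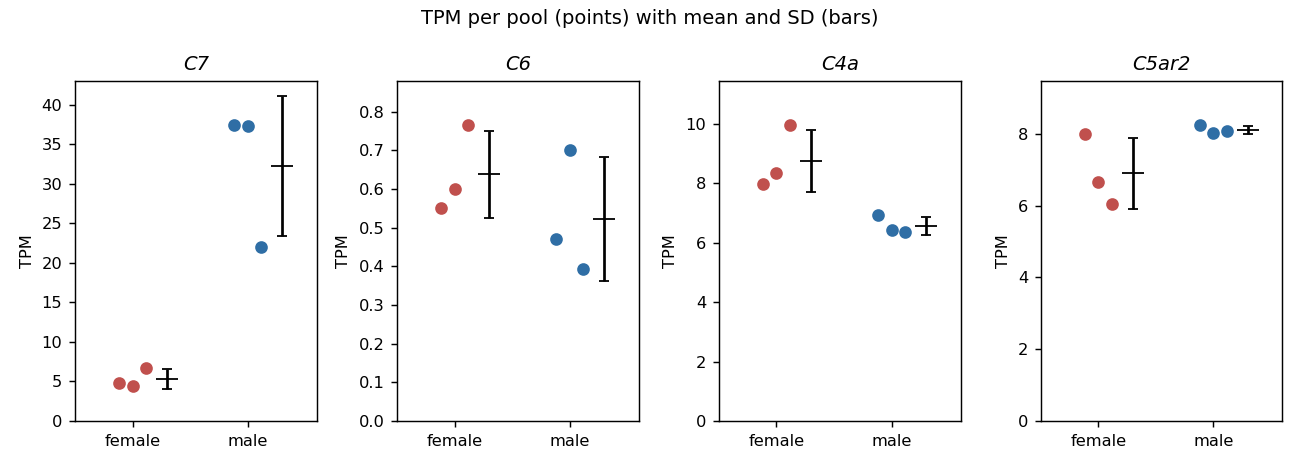
TPM of C7, C6, C4a and C5ar2 in each pool, on linear axes that start at 0. Points are pools, female on the left in red and male on the right in blue, and bars give the mean and SD of each sex. The pools of the sexes are apart for C7 and C4a, overlap for C6, and lie close to each other for C5ar2, where female replicate 1 at 8.00 TPM is just under the lowest male pool at 8.02 TPM.

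Among the classical components, the 3 chains of C1q, which recognizes antibody and other ligands, were among the highest complement transcripts. C1qb was at 355, 312 and 392 TPM in female pools and 394, 455 and 437 TPM in male pools. Its log2 fold change was -0.25 (SE 0.11, edgeR adjusted p = 0.81). C1qa was at 246, 214 and 272 TPM in female pools and 283, 320 and 281 TPM in male pools, with a log2 fold change of -0.24 (SE 0.10) and an edgeR adjusted p of 0.81. The TPM values of the sexes did not overlap for either gene, with female replicate 3 close under the lowest male pool, while the normalized counts overlapped. C1qc averaged 235 TPM and had a log2 fold change of -0.23.

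The chains varied together from pool to pool. Each of them had a coefficient of variation of 12.6% to 13.5% over the 6 pools, and female replicate 2 was the lowest and male replicate 2 the highest pool for all 3 chains. The ratio of C1qb to C1qa stayed between 1.44 and 1.46 in female pools and between 1.39 and 1.56 in male pools, with a coefficient of variation of 3.86%. That of C1qc to C1qa was 0.869 to 0.884 in female pools and 0.847 to 0.904 in male pools (2.26%). The genes lie side by side on the minus strand of chromosome 4 (C1qb at chr4:136606009-136613511, C1qc at chr4:136616466-136620376 and C1qa at chr4:136623223-136626161, GRCm39).

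The promoters of C1qb and C1qc are shown because these transcripts moved together over the pools. They are RefSeq windows of the same kind on GRCm38.p6, minus strand, at chr4:136886151-136886450 and chr4:136892865-136893164. Capitals mark GAGGAA on either strand, the core letters bound by PU.1, a transcription factor of macrophages.
C1qb: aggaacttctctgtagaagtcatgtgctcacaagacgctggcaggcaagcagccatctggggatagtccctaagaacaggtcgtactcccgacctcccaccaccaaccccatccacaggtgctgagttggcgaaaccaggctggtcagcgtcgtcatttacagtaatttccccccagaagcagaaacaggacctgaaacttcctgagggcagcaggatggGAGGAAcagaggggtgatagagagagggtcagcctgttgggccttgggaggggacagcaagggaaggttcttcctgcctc
C1qc: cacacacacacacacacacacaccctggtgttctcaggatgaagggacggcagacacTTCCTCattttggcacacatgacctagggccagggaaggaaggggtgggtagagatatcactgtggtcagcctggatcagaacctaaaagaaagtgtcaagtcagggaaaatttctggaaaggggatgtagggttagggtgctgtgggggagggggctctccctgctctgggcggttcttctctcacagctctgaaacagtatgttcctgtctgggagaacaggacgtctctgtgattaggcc
GAGGAA matched 1 time in each, 30 bases before the start of C1qb on the strand of the gene and 193 bases before the start of C1qc on the opposite strand. The letters occurred in 28.3% of the 32851 promoters and in 8 of the 26 promoters of complement genes. A match here is a description of the letters and not a shown binding site.

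Summed macrophage markers stood beside the C1q values in the same direction. The 12 markers summed to 3252, 3257 and 3260 TPM in female pools and to 3570, 4728 and 4285 TPM in male pools, and without Lyz2, which made up most of the sum, to 1202 to 1225 TPM in female pools and 1265 to 1505 TPM in male pools. Of the 12 markers, 8 had a log2 fold change below 0, and 0 passed the adjusted threshold. In edgeR, 6 had an unadjusted p under 0.05, and 5 of these were lower in females, as were 3.62% of all genes. The remaining one, Cd163, was higher in females, as were 2.49% of all genes, with a log2 fold change of 0.62 (unadjusted p = 0.039 in edgeR). Csf1r, the receptor for macrophage colony stimulating factor, was at 163 to 181 TPM in female pools and 190 to 240 TPM in male pools, while Cd163, a scavenger receptor of resident macrophages, was at 49.2 to 69.3 TPM in female pools and 30.6 to 53.7 TPM in male pools. The part of macrophage content in the C1q values was not tested.

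The proteases that C1q activates were similar in both sexes. C1s1 averaged 251 TPM and C1ra 82.0 TPM, with log2 fold changes of 0.02 for each, and C1rl, a C1r-like protease, averaged 5.16 TPM. The substrates followed: C2 averaged 124 TPM and C4b 123 TPM, with log2 fold changes of 0.18 and 0.09. The ratio of C1s1 to C1ra was 3.05 to 3.21 in female pools and 2.92 to 3.09 in male pools. The genes C1rl, C1ra and C1s1 lie next to each other on chromosome 6 between 124470055 and 124559389 (GRCm39).

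C4a, the paralog of C4b that encodes the sex-limited protein, known in some strains for androgen-dependent synthesis, was at 7.97, 8.36 and 9.96 TPM in female pools and 6.92, 6.44 and 6.35 TPM in male pools. The sexes did not overlap, and the female pools were the higher ones, as for 5.16% of all genes tested. The log2 fold change was 0.35 (SE 0.13, edgeR adjusted p = 0.79). The ratio of C4b to C4a was 13.8 to 15.3 in female pools and 16.97 to 20.3 in male pools. Of the 10 C4a transcripts in the annotation the authors used, 0 are marked as protein coding. The retained-intron transcripts C4a-202, C4a-204, C4a-209 and C4a-206 held 33.5%, 31.1%, 15.8% and 7.14% of C4a TPM on average, in pieces of 526 to 932 bases. With the counts of C4a and C4b merged before the fit, an alternative chosen after seeing the data, the log2 fold change was 0.10.

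The long transcripts of the 2 genes in GENCODE M39 are nearly identical. They aligned over 5369 bases with 96.2% identity and 205 differing bases, and the longest identical run was 433 bases. The long C4a transcripts C4a-201 and C4a-207 held little of the C4a signal, at 0.10 and 0.07 TPM on average. Of the stretches of 31 bases in C4b-201, 51.3% also occurred in another gene. For the retained-intron transcripts C4a-202, C4a-204, C4a-209 and C4a-206 the shares were 7.82%, 39.6%, 91.1% and 97.6%. The window of 60 bases with the most differences in the coding sequence of C4b is shown, since reads of the 2 genes can be told apart there. It lies at chr17:34954404-34954463 for C4b and at chr17:35035062-35035121 for C4a (GRCm39, minus strand), within an exon, and capitals mark the 13 bases that differ.
C4b: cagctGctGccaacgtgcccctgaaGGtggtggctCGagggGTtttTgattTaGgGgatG
C4a: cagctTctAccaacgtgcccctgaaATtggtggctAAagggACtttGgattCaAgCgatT

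C3, the component on which all routes converge, was at 261, 224 and 292 TPM in female pools and 301, 252 and 196 TPM in male pools, with a log2 fold change of 0.08 (SE 0.16, edgeR adjusted p = 0.95). Its sign turned to -0.12 in limma with sample weights and below 0 when female replicate 3 or male replicate 3 was left out. Cfb, factor B of the alternative convertase, was at 195, 196 and 218 TPM in female pools and 291, 193 and 228 TPM in male pools, with a log2 fold change of -0.17 (SE 0.15, edgeR adjusted p = 0.88). Male replicate 1 stood above the other pools. Cfp, properdin, which stabilizes that convertase, averaged 161 TPM and had a log2 fold change of -0.05. The 3 genes lay at the 94.7 percentile of genes tested or above it.

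Reads of the C2 and Cfb region overlap several annotated transcripts. C4b, C4a, Cfb and C2 lie together on chromosome 17 between 34947354 and 35117241 (GRCm39). Of the stretches of 31 bases in Cfb-202, 79.0% also occurred in other genes, Gm20547, a read-through transcript of C2 and Cfb, and Nelfe on the same region among them, and for C2-201 the share was 59.4%. Gm20547 itself was at 0.135 to 1.17 TPM. The values of C1ra (59.6%, with C1rb), C1s1 (52.3%, with C1s2), Cr1l (39.1%, with Crry-ps) and Cd59a (32.8%, with Cd59b) rest in the same way on how the authors' software split shared reads. For Masp2 the share was 63.3%, with Tardbp. The stretches were counted without regard to strand, so a share can include a gene on the opposite strand. Reads of such a gene can be told apart in strand-specific libraries, so a share can overstate how many reads are ambiguous. These shares are for the leading transcript of each gene, and for those of Serping1, C1qa, Clu, Vtn and Masp1 the share was 0.

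The lectin and collectin arm was low. Colec12, a scavenger receptor with a collectin domain, was at 30.6, 28.0 and 29.7 TPM in female pools and 30.3, 31.7 and 26.1 TPM in male pools, with a log2 fold change of -0.02 (SE 0.07, edgeR adjusted p = 0.97). Most of this, 84.7% of the TPM, was assigned to Colec12-201, a transcript annotated for nonsense-mediated decay, and 14.1% to the protein-coding Colec12-204. By estimated counts the shares were 73.7% and 26.2%. Fcna, ficolin A, which binds acetylated sugars, was at 8.51, 8.25 and 13.9 TPM in female pools and 12.3, 12.9 and 8.82 TPM in male pools, with a log2 fold change of -0.13 (SE 0.23, edgeR adjusted p = 0.94). Both sexes held a high and a low pool. Masp1, the protease that starts from these lectins, averaged 2.76 TPM, while its partner Masp2 had 73 estimated pairs in all pools and Fcnb, ficolin B of myeloid cells, had 120.

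Serping1, which encodes C1 inhibitor, was the highest complement transcript, at 787, 728 and 842 TPM in female pools and 847, 795 and 657 TPM in male pools. Its lowest pool was above the highest pool of the next gene, C1qb, at 455 TPM. The log2 fold change was 0.04 (SE 0.09, edgeR adjusted p = 0.96). The ratio of Serping1 to its target C1s1 was 2.90 to 3.14 in female pools and 3.08 to 3.18 in male pools. Vtn, vitronectin, which keeps the forming attack complex from membranes, was at 53.7, 55.8 and 61.6 TPM in female pools and 61.8, 52.6 and 48.4 TPM in male pools, with a log2 fold change of 0.10 (SE 0.09, edgeR adjusted p = 0.88). Clu, clusterin, a chaperone with the same role, averaged 45.8 TPM. Cfi, the protease that cleaves C3b and C4b, had 85 estimated pairs in all pools and 0.122 to 0.248 TPM.

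The membrane regulators varied little among the pools, with coefficients of variation of 5.38% to 9.29%. Cd59a, a lipid-anchored inhibitor of the pore, was at 175, 159 and 144 TPM in female pools and 138, 142 and 158 TPM in male pools. Its log2 fold change was 0.09 (SE 0.09, edgeR adjusted p = 0.91). Cr1l, known as Crry, the rodent regulator of C3 convertases, was at 110, 103 and 104 TPM in female pools and 104, 98.6 and 93.3 TPM in male pools, with a log2 fold change of 0.06 (SE 0.06, edgeR adjusted p = 0.89). Its coefficient of variation of 5.38% was the lowest of the 27 tested genes. Cd55, decay accelerating factor, averaged 62.1 TPM with a log2 fold change of -0.06. The arm summed to 314 to 342 TPM in female pools and 300 to 312 TPM in male pools.

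All 4 receptor genes had log2 fold changes below 0 and none was called, with adjusted p of 0.80 to 0.84 in edgeR. C5ar1, the receptor of C5a on phagocytes, was at 130, 117 and 106 TPM in female pools and 120, 126 and 133 TPM in male pools, with a log2 fold change of -0.26 (SE 0.14). The log2 fold change was -0.09 without male replicate 3 and -0.11 with a length offset, and the normalized count of that pool was 178 CPM against 113 to 136 CPM in the other 5. C3ar1, the receptor of C3a, was at 103, 105 and 108 TPM in female pools and 127, 107 and 159 TPM in male pools. Its log2 fold change was -0.37 (SE 0.14, edgeR adjusted p = 0.80), and male replicate 3 stood highest. C5ar2, the receptor of C5a that does not couple to G proteins, was at 8.00, 6.66 and 6.06 TPM in female pools and 8.24, 8.02 and 8.08 TPM in male pools. It had a log2 fold change of -0.24 (SE 0.10, edgeR adjusted p = 0.81), and its normalized counts did not overlap, as for 6.04% of all genes tested in this direction. Vsig4, a receptor for C3b on resident tissue macrophages, averaged 1.40 TPM. The macrophage marker sums given beside C1q moved in the same direction. Summed neutrophil markers overlapped between the sexes, at 3461 to 6087 TPM in female pools and 3809 to 4876 TPM in male pools. Of the 8 neutrophil markers tested, 1 had a log2 fold change below 0. The part of either marker list in the receptor values was not tested.

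The order of the genes by level was clear only in steps. Of neighbours in that order, Serping1 was apart from C1qb in every pool, Cfb from Cfp, Cr1l from C1ra, C1ra from Cd55, Clu from Colec12, C1rl from Masp1, Masp1 from Vsig4 and Vsig4 from C6. The ranges over the 6 pools overlapped for the other neighbours among the tested genes, such as C1qa, C3, C1s1, C1qc and Cfb, whose means lay between 220 and 269 TPM. Among the 26 tested genes other than C7, the highest pool was 1.17 to 1.94 times the lowest, with a median of 1.38, whereas for C7 it was 8.53 times.

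Male replicate 3 stood at an extreme for many of the genes. It was the lowest of the 6 pools for 11 of the 27 tested genes, C1ra, C1s1, C2, C4a, Masp1, Colec12, C3, C6, Serping1, Vtn and Cr1l, and the highest for C3ar1 and C5ar1. The ratio of C3 to C3ar1 was 1.23 in this pool and 2.14 to 2.71 in the other 5. Of the 12 macrophage markers, this pool was the highest for 4 (Cd68, Aif1, Fcgr1 and Cd14) and the lowest for 3 (Cd163, Mrc1 and Lyve1). Of the 9 fibroblast markers it was the lowest for 5 (Dcn, Pi16, Dpt, Pdgfra and Ly6c1) and the highest for 0, and their sum there, 6797 TPM, lay within the range of the female pools. Female replicate 3 was the highest pool for 8 genes, among them C1s1, C2, C4b and Fcna. Male replicate 1 was also the highest for 8, among them C3, Cfb, C7 and Serping1. Of the 8 adipocyte markers, female replicate 3 was the highest pool for 7 and male replicate 3 the lowest for 7. Summed erythroid markers, a measure of blood in the tissue, were at 30732 TPM in female replicate 3 and at 4958 TPM in male replicate 3, the highest and the lowest of the 6 pools. These markers were looked up after the values of the pools were seen, and their part in them was not tested.

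**Figure D4:**
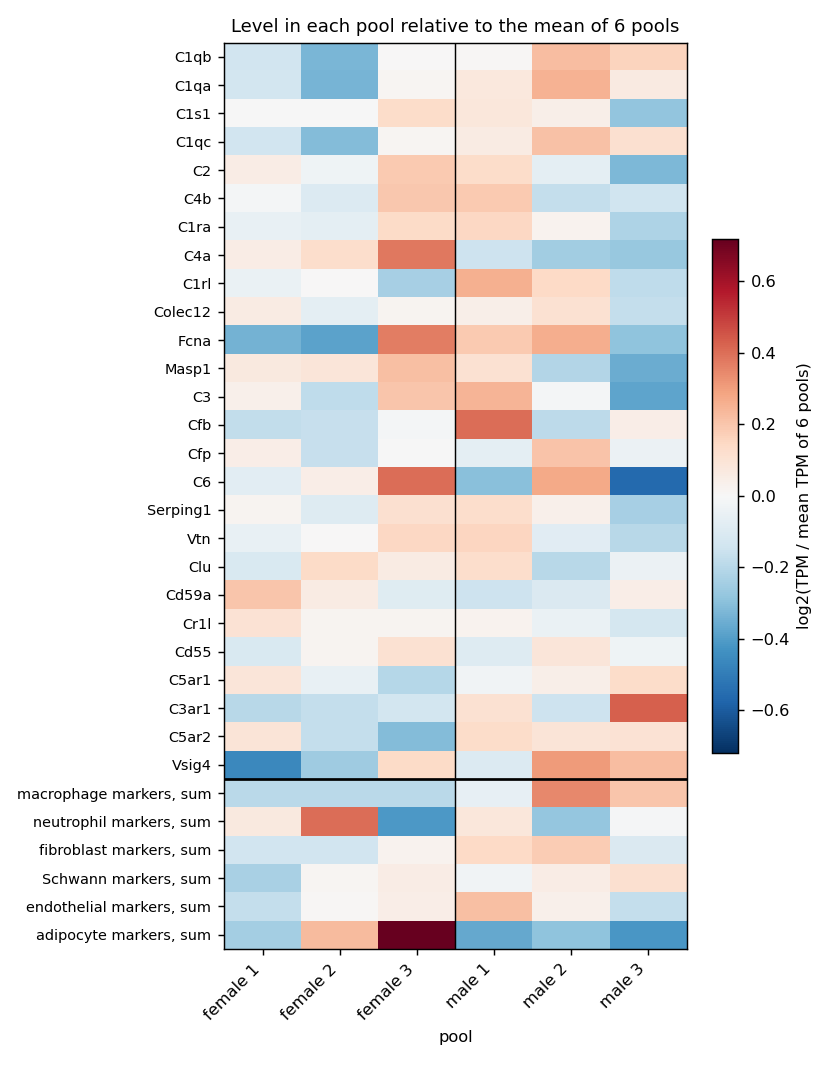
Level of 26 tested complement genes (all but C7) and of 6 summed marker lists in each pool, as log2 of TPM over the mean of the 6 pools, with red above and blue below that mean. Columns are the 3 female pools and then the 3 male pools, and the horizontal line divides the complement genes from the marker sums. The C1q chains share their lowest pool, female replicate 2, and male replicate 3 is blue for Serping1, C3, C1s1 and C2 and red for C3ar1.

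At the level of single transcripts, 63 of the 131 annotated transcripts of these genes had enough counts to be tested, and 0 were called by edgeR at an adjusted p of 0.1, where 0.0289% of all 41480 transcripts tested were. At an unadjusted p under 0.05 there were 5 of the 63, against 4.19% of all transcripts. DESeq2 called 1. The lowest adjusted p was that of C7-201, at 0.13. Of the 33 genes, 15 had over 90% of their TPM in a single transcript, including the 6 with only 1 annotated transcript. For 2 of the 33 the leading transcript, Colec12-201 and C4a-202, was not annotated as protein coding.

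Some transcript shares were set by a single pool. C5ar1-203, a coding transcript of 674 bases, was at 36.0, 37.9 and 27.3 TPM in female pools and 33.0, 29.6 and 5.17 TPM in male pools, and C5ar1-201 was at 94.2 TPM in male replicate 3 against 52.1 to 64.7 TPM elsewhere. The gene total of C5ar1 in that pool was 133 TPM, against 106 to 130 TPM elsewhere. Cfb-201 was at 132 TPM in male replicate 1 against 46.8 to 72.1 TPM in the other pools, while Cfb-202 in that pool, at 140 TPM, lay inside the range of the rest. Serping1-203, an annotated transcript with no coding sequence, held 16.6% of Serping1 TPM on average, but 8.27% of its estimated counts, which are not divided by length. C4b-201, the coding transcript of C4b, held 80.7% of TPM and 97.8% of estimated counts. The transcripts in this paragraph were picked after their values were seen.

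**Figure D5:**
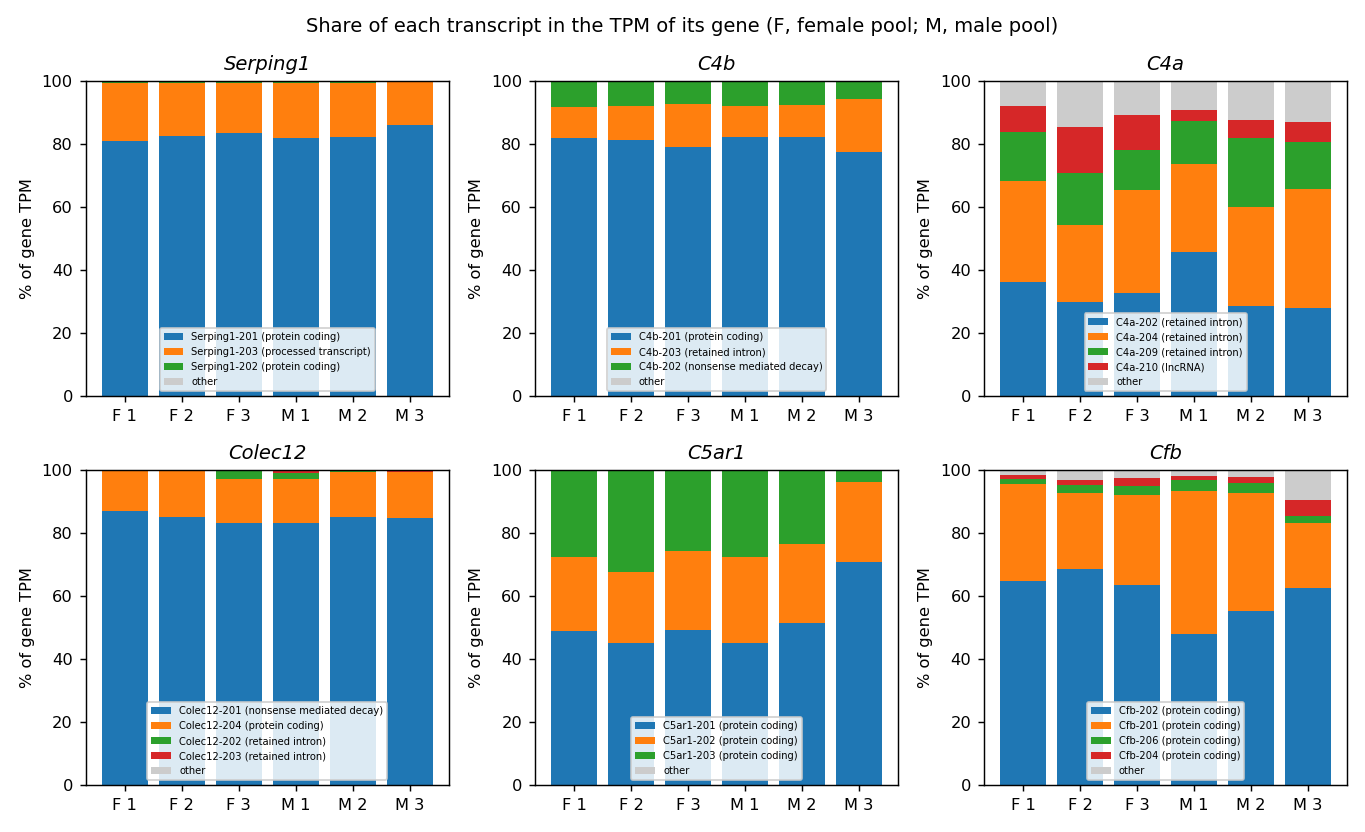
Share of each transcript in the TPM of its gene, in percent, for Serping1, C4b, C4a, Colec12, C5ar1 and Cfb, with the 3 female pools (F) to the left of the 3 male pools (M). Each bar adds up to 100%, colours are the 4 transcripts with the highest mean TPM and grey the rest. C5ar1 in male replicate 3 and Cfb in male replicate 1 differ from the other bars of their gene.

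Of 24 other complement genes on a list that does not overlap with the 33, 13 entered the test and 0 were called, with edgeR adjusted p of 0.63 to 0.99. Their median log2 fold change was 0.05, with 6 genes below 0. Cfd, factor D, the protease that cleaves factor B and a product of adipocytes, was at 394, 438 and 721 TPM in female pools and 456, 385 and 400 TPM in male pools. Female replicate 3, the highest pool, also had the highest adipocyte marker sum, 1156 TPM. The other pools did not keep the same order. Male replicate 1, next in Cfd, had an adipocyte sum of 544 TPM, and female replicate 2 had 822 TPM. The part of adipocyte content in the Cfd values was not tested. Itgam and Itgb2, the chains of complement receptor 3, averaged 170 and 159 TPM. Cd93, a lectin of endothelial and myeloid cells once described as a C1q receptor, was at 53.73, 51.8 and 46.0 TPM in female pools and 59.96, 58.4 and 53.66 TPM in male pools, with a log2 fold change of -0.21 (SE 0.07, edgeR adjusted p = 0.63). The 11 genes that did not enter the test, among them the mannose-binding lectins Mbl1 and Mbl2, C8a and C8b, had at most 92 estimated pairs in all 6 pools.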

How the data were processed

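Paired-end reads of poly-A, strand-specific libraries had been trimmed by the authors (Trimmomatic 0.39) and assigned to GENCODE mouse transcripts by Salmon. The Salmon version is 1.5.2 in the submitters' processing notes and another in the paper, and the GENCODE release also differs between file names and paper. Per transcript, the deposited estimated count of read pairs can be fractional and carries no further normalization, and the deposited TPM is scaled to the same total in each sample and not corrected for composition.

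Here 140789 transcripts were summed by gene identifier to 54309 genes. Counts were rounded, and a gene was kept where 3 or more pools had a CPM of 0.5 or above (16310 genes, and 41480 transcripts by the same rule). Females were compared with males by edgeR 4.0.16 (TMM, robust quasi-likelihood fit, no covariate) with Benjamini-Hochberg adjustment and a threshold of 0.1, which the paper also uses. The common biological coefficient of variation was 0.154. The fit was tested on simulated data. P-values measure the spread between pools of 2 mice, and the library totals (55949876 to 78473057 pairs) limit genes with few counts.

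The complement genes, the marker lists and the list of other complement genes were chosen with earlier results of these data known. Values in every pool are given for the 2 highest genes of each arm, for genes with an unadjusted p under 0.05 and for genes whose normalized counts do not overlap. Of the other complement genes, the 4 highest and any with an unadjusted p under 0.05 are named. A gene that this rule names is not reported here. Names outside this rule were chosen after their values were seen. These are C1qc, the remaining members given by mean or count, the markers named singly and the transcripts.

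Coordinates are from GENCODE M39 on GRCm39, matched by gene identifier. Shared stretches of 31 bases were counted in M39 transcripts without regard to strand. Of 110 transcripts with a TPM above 0, 109 matched to M39. RefSeq promoters (GRCm38.p6) matched 23 of the 33 genes. Alternatives were DESeq2 1.42.0, RLE factors, a length offset, no filter, a stricter filter, a fit that was not robust, limma 3.58.1 with sample weights, the replicate number as a block, each pool left out, other thresholds, protein-coding transcripts alone, TPM divided by TMM factors, and counts in place of TPM for shares. Counts of genes with shared sequence were merged in a further alternative, chosen after seeing the data. Fits ran in R 4.3.3, and tables in Python 3.11.15 with pandas 2.3.3.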

Additional observations from a re-analysis of the deposited data

How the results depend on the processing

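The edgeR count of 1 complement gene called was 0 with no filter, with the replicate block and at an adjusted p of 0.05, and 0 to 1 with each pool left out. It was 1 under the other alternatives. For C7 the log2 fold change was -2.62 with no filter (adjusted p = 0.23) and -2.61 with the replicate block (adjusted p = 0.54), and -2.84 to -2.48 with each pool left out (adjusted p = 0.037 to 0.52), 0.061 without female replicate 3 and 0.037 without male replicate 3 among them. Over all 15 alternatives the adjusted p was 5.1e-30 to 0.54, 9 of them past the threshold. The cause was not tested.

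Replicate numbers did not pair the pools. Correlations of same-numbered deviations were -0.19, -0.16 and -0.13, and 0 pools correlated best with their own number. The block lowered the count of all genes called to 5, against 10 without it. Over all genes DESeq2 called 159, limma with sample weights 26 and edgeR with no filter 49, and 3 to 8 with a pool left out.

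Of complement transcripts, 0 were called in edgeR, and 1 with a stricter filter, 1 in DESeq2 and 0 to 1 with each pool left out. Of the 225 fold changes of 15 other named genes under the alternatives, 12 had another sign and 0 passed the threshold. These were values of Colec12, Fcna, C3, Cfb, C6 and Serping1. Of 230 levels, 15 moved by more than 1 SD, all with protein-coding transcripts alone, where C4a, with no transcript annotated as coding, had 0 TPM and Colec12 averaged 4.12 TPM in female pools and 4.18 TPM in male pools. C9, Hc, C8g, Cfi, Masp2 and Fcnb fell below the CPM filter and have no value in the comparison. With estimated counts in place of TPM, 6 of the leading-transcript shares moved by more than 1 SD.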
